A study of Mus musculus with 6 samples.

Results

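A set of 10 enzymes of glycolysis was followed through the main cell classes of mouse pancreatic tumours: hexokinase 2 (Hk2), the liver and platelet forms of phosphofructokinase (Pfkl and Pfkp), aldolase A (Aldoa), triosephosphate isomerase (Tpi1), phosphoglycerate kinase 1 (Pgk1), phosphoglycerate mutase 1 (Pgam1), enolase 1 (Eno1), pyruvate kinase M (Pkm) and lactate dehydrogenase A (Ldha). The members were fixed as this list of gene symbols, 10 of the 32285 genes in the count matrices, and no measured value of theirs chose the cells in which they are described. Glycolysis splits glucose into pyruvate with a net gain of ATP and NADH, and lactate dehydrogenase turns pyruvate into lactate and so restores NAD+. Tumours, activated macrophages, neutrophils and proliferating T cells are known for a high glycolytic flux even where oxygen is present. Most of these genes are textbook targets of hypoxia-inducible factor 1 and of Myc, and several reactions can be run by isoenzymes encoded by different genes.

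The cells came from orthotopic pancreatic tumours grown in C57BL/6 mice. KPC cells, a cancer line taken from an engineered mouse with a mutant p53 allele and Pdx1-Cre, which acts in the pancreas, were made to carry an empty vector (KPC-OE-Vector) or an MLKL overexpression construct (KPC-OE-MLKL) and injected into the pancreas, MLKL being the pseudokinase that permeabilises the membrane in necroptosis. The labels name no engineered allele of the host mice and no drug for either group, the mice were 6 to 8 weeks old at injection and tumours were taken 4 weeks later, by the study's methods. By the labels, tumours were digested with collagenase I and DNase I, and single-cell 3' libraries were made with the 10x Genomics protocol. The labels name 6 samples, of which 4 were analysed here, OE-Vector 1 and OE-MLKL 1, 2 and 3, while OE-Vector 2 and OE-Vector 3 were not analysed here. With a single OE-Vector library, a difference between the groups cannot be told apart from a difference between tumours.

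The 4 libraries held 150591289 to 169978362 unique molecular identifiers (UMIs), and 15382 to 23063 barcodes per library passed the filters for cells. Cells were assigned to a class when the summed UMIs of a fixed marker list exceeded a set share of the cell's total, which gave 2971 to 8110 cancer-gated cells, 2098 to 3195 macrophages, 5402 to 8727 neutrophils and 576 to 1039 T cells per library. Macrophage markers made up 3.29% to 4.03% of UMIs in the macrophage gate and at most 0.265% in any other gate, neutrophil markers 7.37% to 8.43% against at most 0.110%, and T cell markers 0.489% to 0.636% against at most 0.0054%. Each list set its own gate, so these shares follow from the rule and are no separate check of the classes. The cancer gate was less clear in its single markers. Its cells carried Krt8 at 455 to 742 CPM (UMIs of a gene divided by all UMIs of the class and library, on the usual CPM scale) and Sox9 at 150 to 211 CPM, above every other gate, but Epcam at 3.45 to 19.5 CPM and Cdh1 at 3.32 to 7.62 CPM overlapped their range in the immune gates (up to 24.4 CPM for Epcam in T cells), and the mesenchymal receptor Pdgfrb stood at 75.6 to 128 CPM, so they are called cancer-gated cells. Of the cancer-gated cells 8.18% in the OE-Vector library, against 27.4%, 19.9% and 19.0% in the OE-MLKL libraries, lay within 1.5 times the set share, so that marginal cells differed between the groups, and in the other gates the share was 3.95% to 13.3%. Between pairs of libraries 73 to 134 cell barcodes were shared.

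The overexpressed gene was examined first. Mlkl stood at 16.4 CPM in cancer-gated cells of OE-Vector 1 (exact Poisson 95% interval 15.6 to 17.3, counting error only) and at 8.70, 13.0 and 19.9 CPM in OE-MLKL 1, 2 and 3, a log2 difference of -0.39 ± 0.39 (SE; edgeR quasi-likelihood test, adjusted p = 0.999). The libraries labelled OE-MLKL as a group thus showed no rise in Mlkl RNA, and whether the construct's own transcript would be counted at the Mlkl locus is not given in the sources used here. All directions below are those of the libraries labelled OE-MLKL against the library labelled OE-Vector.

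Where the members sit and what their promoters hold is given here because most of them differed together in the cells described further on. In GRCm38 (mm10) the genes are spread over 8 chromosomes. Hk2 is at chr6:82725025-82774454 (minus strand), Pfkl at chr10:77986947-78010083 (minus), Pfkp at chr13:6579768-6648777 (minus), Aldoa at chr7:126795234-126800751 (minus) and Tpi1 at chr6:124810586-124814296 (minus). Pgk1 is at chrX:106187100-106203699 (plus), Pgam1 at chr19:41911923-41918660 (plus), Eno1 at chr4:150236721-150248879 (plus), Pkm at chr9:59656368-59679375 (plus) and Ldha at chr7:46841475-46855627 (plus). A second identifier that also carries the symbol Aldoa, at chr7:126800790-126809108, held 0 to 6 UMIs per class and library and was not added to the first. The letters ACGTG, a form of the core of the element bound by hypoxia-inducible factor, were searched on both strands (ACGTG or CACGT, with CACGTG matching on both). The search covered the 250 bases before each RefSeq transcription start of GRCm38.p6. The letters were found before at least 1 start of 6 of the 10 genes (Hk2, Aldoa, Pgk1, Pgam1, Pkm and Ldha), against 4998 of 27025 of all genes (18.5%). By promoter they were found in 7 of 16 (43.8%) against 5444 of 32851 promoters of all genes (16.6%). The Aldoa promoters among the 7 overlap and hold the same match. Eno1, Tpi1, Pfkl and Pfkp held none of these letters in this window, which says nothing about the factor itself. The other form of the core, GCGTG, was not searched, and the Pfkl promoter below holds it. The split is thus by these letters and not by presence of the element. The 5 promoters below, those of 4 genes that hold the letters and, for contrast, that of Pfkl, which does not, are shown 5' to 3' on the gene's strand with those letters in capitals, the start following the last base.
Hk2, chr6:82774455-82774704 (minus strand): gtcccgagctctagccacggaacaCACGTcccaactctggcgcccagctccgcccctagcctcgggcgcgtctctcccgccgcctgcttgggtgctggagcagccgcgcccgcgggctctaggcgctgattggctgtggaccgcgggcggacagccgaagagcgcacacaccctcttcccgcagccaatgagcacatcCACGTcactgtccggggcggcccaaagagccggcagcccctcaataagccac
Pgk1, chrX:106186850-106187099 (plus strand): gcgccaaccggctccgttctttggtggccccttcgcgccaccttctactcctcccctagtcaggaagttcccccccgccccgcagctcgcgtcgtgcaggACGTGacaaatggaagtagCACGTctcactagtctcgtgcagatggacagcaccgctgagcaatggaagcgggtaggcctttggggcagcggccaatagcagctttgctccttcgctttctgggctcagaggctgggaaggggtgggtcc
Pgam1, chr19:41911621-41911870 (plus strand): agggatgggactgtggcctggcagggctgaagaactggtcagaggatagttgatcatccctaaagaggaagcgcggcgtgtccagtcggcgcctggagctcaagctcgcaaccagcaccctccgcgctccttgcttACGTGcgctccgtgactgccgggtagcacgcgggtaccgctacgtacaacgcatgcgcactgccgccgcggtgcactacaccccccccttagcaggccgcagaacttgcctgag
Ldha, chr7:46845554-46845803 (plus strand): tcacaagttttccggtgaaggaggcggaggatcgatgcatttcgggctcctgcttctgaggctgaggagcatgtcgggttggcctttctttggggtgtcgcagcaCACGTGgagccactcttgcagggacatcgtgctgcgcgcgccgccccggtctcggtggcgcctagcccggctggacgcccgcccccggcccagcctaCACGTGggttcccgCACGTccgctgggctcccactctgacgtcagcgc
Pfkl, chr10:78009808-78010057 (minus strand): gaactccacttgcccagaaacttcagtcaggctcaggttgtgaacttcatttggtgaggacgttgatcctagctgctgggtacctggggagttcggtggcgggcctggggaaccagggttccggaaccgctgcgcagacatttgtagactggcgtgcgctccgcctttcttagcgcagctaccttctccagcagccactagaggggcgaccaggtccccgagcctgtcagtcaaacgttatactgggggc
Hk2 and Pgk1 each hold 2 separate matches, Pgam1 holds 1, and Ldha holds 3 stretches of which 2 are the palindrome CACGTG. A match is a description of the letters and not a measured binding site.

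Across the cell classes, T cells stood apart in 3 of the enzymes. Hk2, which traps glucose in the cell as glucose 6-phosphate, and Pgam1, which moves the phosphate of phosphoglycerate, were lower in T cells than in cancer-gated cells, macrophages and neutrophils alike, and Pfkp was higher there than in all 3. These 9 differences passed the test under every scaling and with every library left out in turn. Macrophages had the highest Hk2, and the other members formed no single order of classes. Levels are given as CPM over the 4 libraries, and the tests compared UMI sums per library and class with the library as a block (edgeR quasi-likelihood test with TMM scaling, 14446 genes, Benjamini-Hochberg adjusted p). In these 6 pairs of classes a large part of all genes was called, so a call alone sets no member apart. Higher in the first class were 35.1% for cancer-gated cells over macrophages, 43.3% for cancer-gated cells over neutrophils, 33.9% for cancer-gated cells over T cells, 35.5% for macrophages over neutrophils, 31.4% for macrophages over T cells and 37.5% for neutrophils over T cells. Lower in the first class were 33.7%, 37.1%, 32.7%, 33.2%, 29.1% and 34.2% in the same order.

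Hk2 ranged over the libraries from 101 to 151 CPM in macrophages, from 65.4 to 87.8 CPM in cancer-gated cells, from 57.2 to 96.3 CPM in neutrophils and from 21.1 to 37.3 CPM in T cells. All 6 pairs of classes differed in the test. The macrophage level exceeded that of T cells by 2.18 ± 0.18 (SE) on the log2 scale (adjusted p = 4.67e-08), that of neutrophils by 0.48 ± 0.16 (adjusted p = 0.0144, and 0.0529 without OE-MLKL 3), and cancer-gated cells minus macrophages gave -0.95 ± 0.16 (adjusted p = 7.27e-05). Cancer-gated cells and neutrophils overlapped in CPM, and their difference of -0.47 ± 0.16 (adjusted p = 0.0142) was -0.05 and not called when library size alone set the scale.

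Phosphofructokinase commits the sugar to glycolysis, and its 2 members were placed in opposite orders. Pfkl stood at 40.9 to 113 CPM in cancer-gated cells and 37.5 to 111 CPM in macrophages, a difference that did not pass the test (-0.06 ± 0.11, adjusted p = 0.629), at 30.6 to 85.4 CPM in neutrophils and at 22.3 to 70.3 CPM in T cells. Cancer-gated cells exceeded T cells by 0.77 ± 0.12 (log2, adjusted p = 3.68e-05) and macrophages exceeded them by 0.83 ± 0.12 (adjusted p = 2.33e-05). The difference of neutrophils over T cells, 0.53 ± 0.12 (adjusted p = 0.0012), was 0.17 and not called with library size alone. Pfkp stood at 97.3 to 206 CPM in T cells, 36.2 to 139.5 CPM in neutrophils, 39.4 to 70.6 CPM in macrophages and 35.1 to 69.9 CPM in cancer-gated cells. T cells exceeded cancer-gated cells by the most, the log2 difference of cancer-gated cells over T cells being -1.66 ± 0.18 (adjusted p = 1.2e-06). Macrophages over T cells gave -1.28 ± 0.18 (adjusted p = 2.43e-05) and neutrophils over T cells -0.76 ± 0.18 (adjusted p = 0.00183). The difference of cancer-gated cells over macrophages in Pfkp did not pass the test (-0.38 ± 0.18, adjusted p = 0.0722).

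The enzymes of the middle of the pathway spanned wide ranges. Aldoa, which cleaves fructose 1,6-bisphosphate, spanned 315 to 1114 CPM in neutrophils, 416 to 910.0 CPM in macrophages, 427 to 579.8 CPM in cancer-gated cells and 339 to 656 CPM in T cells. With the library as a block, neutrophils exceeded T cells by 0.69 ± 0.22 (log2, adjusted p = 0.0106, and 0.107 without OE-MLKL 3) and macrophages exceeded T cells by 0.55 ± 0.22 (adjusted p = 0.038, and 0.184 without OE-MLKL 3), and neither passed with library size alone. Cancer-gated cells over neutrophils gave -0.55 ± 0.22 (adjusted p = 0.0303), but -0.12 (adjusted p = 0.55) with library size alone, -0.42 (adjusted p = 0.0798) with no filter on low counts, -0.38 (adjusted p = 0.117) with cells of several gates kept, -0.21 (adjusted p = 0.332) without OE-Vector 1 and -0.33 (adjusted p = 0.29) without OE-MLKL 3. Tpi1, which interconverts the 2 triose phosphates, stood at 185 to 521 CPM in macrophages and 87.4 to 287 CPM in neutrophils, and this difference of 0.91 ± 0.20 (log2, adjusted p = 0.00086) was called under every alternative. Pgk1, the first ATP-yielding step, ranged from 223 to 705 CPM in macrophages, 278 to 329 CPM in cancer-gated cells, 271 to 484 CPM in T cells and 103 to 444 CPM in neutrophils. Of its 6 differences only macrophages over neutrophils passed the test, at 0.72 ± 0.28 (adjusted p = 0.0316, and 0.0637 to 0.0803 without 1 of the OE-MLKL libraries). Pgam1 stood at 160.3 to 299.7 CPM in T cells against 298 to 462 CPM in cancer-gated cells, 301 to 651 CPM in macrophages and 218 to 598 CPM in neutrophils. Macrophages exceeded T cells in Pgam1 by 1.15 ± 0.15 (adjusted p = 1.16e-05), neutrophils by 0.92 ± 0.15 (adjusted p = 7.45e-05) and cancer-gated cells by 0.71 ± 0.15 (adjusted p = 0.00075).

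Of the last steps, Eno1, which makes phosphoenolpyruvate, stood at 232 to 297 CPM in cancer-gated cells, 210.1 to 317 CPM in T cells, 191 to 398 CPM in neutrophils and 124 to 295 CPM in macrophages. Only the difference of macrophages over neutrophils passed the test, at -0.58 ± 0.18 (log2, adjusted p = 0.00905, and 0.0582 without OE-MLKL 3). Pkm, which yields pyruvate and ATP, ranged from 579 to 1176 CPM in neutrophils, 591 to 994 CPM in macrophages, 648 to 907 CPM in cancer-gated cells and 520.1 to 722 CPM in T cells, and neutrophils exceeded T cells by 0.78 ± 0.19 (adjusted p = 0.0017). These counts cannot separate the spliced forms Pkm1 and Pkm2, which share the counted 3' end. Ldha stood at 528 to 819.8 CPM in T cells and 549 to 793 CPM in cancer-gated cells, a difference that did not pass the test, at 332 to 677 CPM in macrophages and at 308 to 529 CPM in neutrophils. Only the difference of neutrophils over T cells passed the test for Ldha, at -0.50 ± 0.17 (adjusted p = 0.0185, 0.0593 without OE-MLKL 1 and 0.0878 when OE-MLKL 2 was left out).

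The scale and the libraries used bore on some of these differences. With library size alone in place of TMM, the median log2 difference of all genes moved from 0.12 to 0.54 for cancer-gated cells over neutrophils and from 0.12 to -0.23 for neutrophils over T cells. The enzymes called for cancer-gated cells over neutrophils were then Pfkl, Tpi1, Pgk1 and Ldha as higher and Pfkp as lower, where TMM called Hk2, Pfkp, Aldoa and Pkm as lower and none as higher. For cancer-gated cells over macrophages, TMM called Hk2, Tpi1 and Pgam1 as lower, and library size alone called Hk2 as lower and Eno1 and Ldha as higher. Without OE-MLKL 3, Hk2 alone was called for cancer-gated cells over macrophages, Pfkp alone for cancer-gated cells over neutrophils and Tpi1 alone for macrophages over neutrophils. TMM without OE-Vector 1 called Pfkl, Tpi1, Pgk1 and Ldha as higher and Pfkp as lower for cancer-gated cells over neutrophils. For cancer-gated cells over macrophages it then called Eno1 and Ldha as higher and Hk2, Pfkp and Pgam1 as lower. Eno1 and Ldha were then also called as lower for macrophages over T cells. In barcodes of at most 100 UMIs, which hold free RNA, the members were not rare: Hk2 stood at 52.0 to 76.9 CPM, Pgk1 at 285 to 401 CPM and Pkm at 791 to 929 CPM. Neutrophils had a median of 741 to 1422 UMIs per cell against 12182.5 to 25415 UMIs in cancer-gated cells, and the part of free RNA in their levels was not tested.

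**Figure D1:**
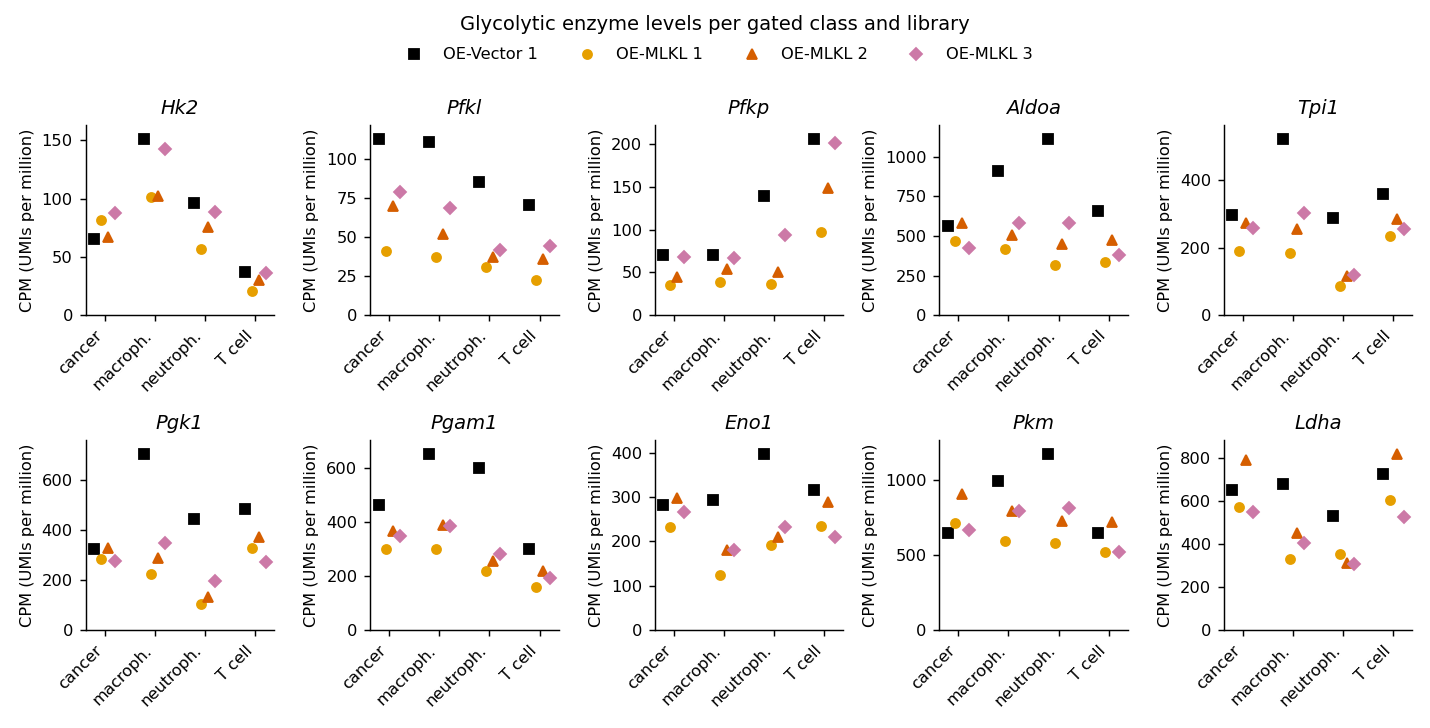
Level of each of the 10 enzymes (vertical axis, CPM, starting at 0) in cancer-gated cells, macrophages, neutrophils and T cells (horizontal axis), with 1 point per library and marker shape and colour giving the library. Hk2 in T cells (21.1 to 37.3 CPM) lies below the other classes and Pfkp in T cells (97.3 to 206 CPM) mostly above them, and the black squares of OE-Vector 1 lie above the 3 OE-MLKL libraries for all 10 enzymes in macrophages and in neutrophils.

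The source of hexokinase differed between the classes. Hk2 made up 57.7% ± 6.11 (SD, n = 4 libraries) of hexokinase UMIs in macrophages, 51.9% ± 5.36 in cancer-gated cells, 43.6% ± 5.04 in neutrophils and 27.8% ± 3.41 in T cells. T cells drew 69.8% ± 2.89 from Hk1, the broadly expressed mitochondrial hexokinase, and cancer-gated cells 45.7% ± 4.84. Hk3, a hexokinase typical of myeloid cells, gave 23.6% ± 7.59 in macrophages and 30.7% ± 7.52 in neutrophils, but 1.57% ± 1.20 in cancer-gated cells and 1.85% ± 1.39 in T cells. No library of the myeloid classes overlapped any library of the other classes in the Hk3 share. Shares are counts of 3' tags, 1 per captured molecule, so they compare isoenzymes without regard to length. How well reads of isoenzymes with like sequence were told apart was not tested, which bears on the shares of every family. Exact sign-flip tests over 4 libraries could not reach p = 0.05, so none was run.

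Phosphofructokinase ran from mainly the liver form to mainly the platelet form across the classes. Pfkp supplied 77.5% ± 3.13 of the family's UMIs in T cells and 59.1% ± 7.16 in neutrophils, against 44.4% ± 4.63 in macrophages and 37.6% ± 3.64 in cancer-gated cells, where Pfkl supplied 48.9% ± 6.74 and 51.2% ± 5.66. The muscle form Pfkm supplied 6.60% to 17.5% in cancer-gated cells and up to 9.91% in macrophages, so that the ranges overlap, and less than 6% in every library of neutrophils and T cells. Enolase came from Eno1 at 89.9% ± 1.90 to 93.2% ± 2.42 in the 3 immune classes, while in cancer-gated cells Eno3, the muscle enolase, supplied 21.1% ± 2.73. Aldoa supplied 94.4% ± 0.55 of aldolase in cancer-gated cells, where Aldoc held 4.63% ± 0.59, and over 93% in every library of the other classes. Pgk1, Pgam1 and Pkm were close to the sole source of their family's UMIs in every class, with Pklr, the liver and red cell pyruvate kinase, at no more than 0.30% of the family.

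Lactate dehydrogenase was almost entirely Ldha, at 99.6% ± 0.16 in cancer-gated cells, except in macrophages. There Ldhb, whose subunit favours the conversion of lactate to pyruvate, held 1.94% in OE-Vector 1 (exact binomial 95% interval 1.70% to 2.19%, counting error only) and 11.97%, 9.48% and 6.24% in OE-MLKL 1, 2 and 3. The 3 OE-MLKL libraries thus lay above OE-Vector 1, but they ranged widely among themselves, and the spread between OE-Vector tumours is unknown from 1 library. In level, Ldhb stood at 13.4 CPM in OE-Vector 1 and at 45.1, 47.1 and 26.9 CPM in OE-MLKL 1, 2 and 3, a log2 difference of 1.46 ± 0.44 that was not called over all genes (edgeR, adjusted p = 0.777).

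**Figure D2:**
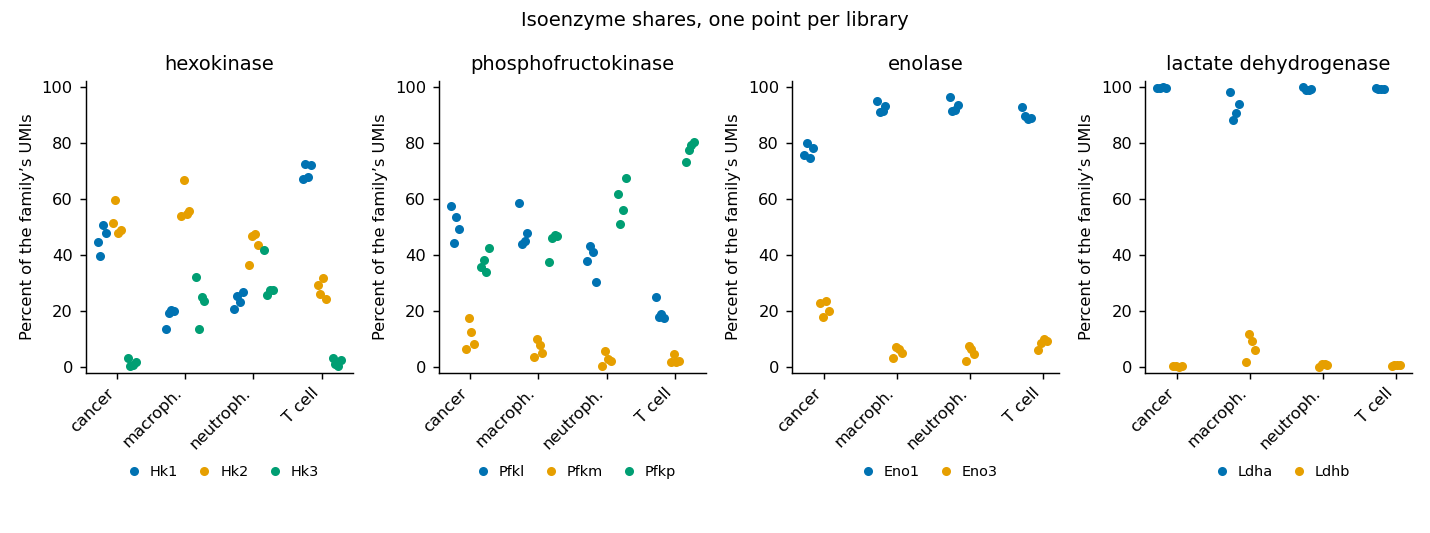
Share of each isoenzyme in the UMIs of its family (vertical axis, percent) for hexokinase, phosphofructokinase, enolase and lactate dehydrogenase in the 4 gated classes (horizontal axis), with 1 point per library. Hk3 is at 13.8% or more in every macrophage and neutrophil library and at 3.42% or less in the others, Eno3 is at 17.8% or more in cancer-gated cells only, and Ldhb passes 1.94% only in macrophages of the OE-MLKL libraries.

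Between the groups, all 10 enzymes stood lower in macrophages and in neutrophils of all 3 libraries labelled OE-MLKL than in the OE-Vector library, while none of them was called over all genes. In cancer-gated cells 4 of the 10 and in T cells 8 of the 10 lay below OE-Vector 1 in all 3 libraries. The background for this pattern, over all genes tested in the class, was 17.8% in macrophages, 16.1% in neutrophils, 17.3% in cancer-gated cells and 18% in T cells. The median log2 difference of the 10 enzymes was -0.99 in macrophages, -1.48 in neutrophils, -0.52 in T cells and -0.26 in cancer-gated cells, while the median of all genes in the 4 classes lay between 0.02 and 0.04. The question is whether the labelled MLKL state of the cancer cells goes with a different enzyme level in each class, and 1 library against 3 leaves 2 residual degrees of freedom, the lone OE-Vector library being taken to vary like the OE-MLKL libraries. Over all genes the edgeR test called 0% in macrophages and in neutrophils, with 829 of 13916 and 1086 of 13191 genes at an unadjusted p under 0.05, 0.00564% in cancer-gated cells and 0.00858% in T cells. Of the 10 enzymes, 7 in macrophages, 9 in neutrophils, 1 in cancer-gated cells and 1 in T cells had an unadjusted p under 0.05, the last 2 beside 781 of 17735 and 543 of 11649 genes.

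In macrophages the enzyme with the largest difference was Pgk1, with 705 CPM in OE-Vector 1 and 223, 287 and 350.0 CPM in OE-MLKL 1, 2 and 3. The groups did not overlap, and the log2 difference was -1.43 ± 0.31 (SE; edgeR, adjusted p = 0.646). Tpi1 stood at 521 CPM in OE-Vector 1 and at 185, 254 and 301 CPM in OE-MLKL 1, 2 and 3 (-1.21 ± 0.32, adjusted p = 0.739). Pfkl stood at 111 CPM against 37.5, 52.1 and 68.6 CPM (-1.20 ± 0.32, adjusted p = 0.739). In each of these the OE-MLKL 1 library was the lowest and OE-MLKL 3 the nearest to OE-Vector 1. Aldoa, at 910.0 CPM against 416, 504 and 581 CPM, and Pgam1, at 651 CPM against 301, 388 and 386 CPM, both differed by -0.99. Eno1 stood at 295 CPM against 124, 180.1 and 181 CPM, a difference of -0.99 ± 0.30, and Ldha at 677 CPM against 332, 449 and 404 CPM, a difference of -0.90 ± 0.31. The 3 smallest differences were those of Pkm (994 CPM against 591, 794 and 793 CPM), Pfkp (70.6 CPM against 39.4, 54.4 and 67.0 CPM) and Hk2 (151 CPM against 101, 102 and 143 CPM), at -0.58 ± 0.33, -0.53 ± 0.31 and -0.52 ± 0.29. Summed, the 10 enzymes made up 5086 CPM in OE-Vector 1 and 2350 to 3274 CPM in the OE-MLKL libraries.

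In neutrophils the differences were larger and again led by Pgk1, at 444 CPM in OE-Vector 1 and 103, 130.4 and 195 CPM in OE-MLKL 1, 2 and 3 (-1.90 ± 0.38, edgeR adjusted p = 0.569). Tpi1 stood at 287 CPM against 87.4, 117 and 119 CPM (-1.66 ± 0.30, adjusted p = 0.569), and Aldoa at 1114 CPM against 315, 449 and 580.5 CPM (-1.57 ± 0.40). All 3 OE-MLKL libraries lay far below OE-Vector 1 here. Pgam1 stood at 598 CPM against 218, 257 and 282 CPM (-1.50 ± 0.32), Pfkl at 85.4 CPM against 30.6, 37.1 and 41.7 CPM (-1.48 ± 0.28, adjusted p = 0.569) and Pfkp at 139.5 CPM against 36.2, 50.6 and 93.3 CPM (-1.48 ± 0.48). Eno1 was at 398 CPM against 191, 211 and 233 CPM, Pkm at 1176 CPM against 579, 729 and 812 CPM and Ldha at 529 CPM against 353, 309.9 and 308 CPM, differences of -1.16, -0.99 and -0.96. Hk2 was the closest between the groups, at 96.3 CPM against 57.2, 75.5 and 88.8 CPM (-0.64 ± 0.32, adjusted p = 0.634). The sum of the 10 enzymes was 4867 CPM in OE-Vector 1 and 1972 to 2753 CPM in the OE-MLKL libraries.

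In cancer-gated cells 8 of the 10 differences were also negative and 2 were positive. Pkm stood at 648 CPM in OE-Vector 1 and at 713, 907 and 668 CPM in OE-MLKL 1, 2 and 3, and Hk2 at 65.4 CPM against 81.3, 66.8 and 87.8 CPM, all 3 above OE-Vector 1 for both genes. The pattern of all 3 above held for 32.2% of all genes tested in cancer-gated cells, 36.9% in macrophages, 43.3% in neutrophils and 25.8% in T cells. Without OE-MLKL 2 the difference of Pkm turned from 0.15 to -0.03, and without OE-MLKL 3 that of Ldha turned from -0.11 to 0.07. Ldha (649 CPM against 573, 793 and 549 CPM), Pgk1 (326 CPM against 283, 329 and 278 CPM), Aldoa (564 CPM against 468, 579.8 and 427 CPM) and Eno1 (282 CPM against 232, 297 and 267 CPM) overlapped between the groups. Only Pfkl had an unadjusted p under 0.05, at 113 CPM against 40.9, 69.7 and 78.7 CPM (-0.96 ± 0.35, edgeR adjusted p = 0.999). Pfkp, Tpi1 and Pgam1 also lay below OE-Vector 1 in all 3 OE-MLKL libraries, by -0.65, -0.40 and -0.56. In T cells, Pfkl at 70.3 CPM against 22.3, 35.9 and 44.0 CPM had the lowest p (-1.10 ± 0.32, adjusted p = 0.981), and Pgk1 stood at 484 CPM against 327, 371 and 271 CPM. Pkm and Ldha of T cells overlapped between the groups, at 649 CPM against 524, 722 and 520.1 CPM and at 727 CPM against 605, 819.8 and 528 CPM, and Ldha turned from -0.18 to 0.02 without OE-MLKL 3. Pfkl, Pfkp, Tpi1 and Pgam1 thus lay below OE-Vector 1 in all 3 OE-MLKL libraries in every class. The classes share the same OE-Vector library, so their agreement is not separate support. The free RNA of the 4 libraries had Pfkl in the order of these classes, at 109 CPM in OE-Vector 1 and 46.9, 62.7 and 71.5 CPM in OE-MLKL 1, 2 and 3, and its part was not tested.

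The calls depended on which libraries entered. Without OE-MLKL 3, the edgeR test called 2 of the 10 enzymes in macrophages, among them Pgk1 at -1.55 (adjusted p = 0.033), 7 in neutrophils, among them Pgk1 at -2.16 (adjusted p = 0.00534), and 2 in T cells, among them Pfkl at -1.22 (adjusted p = 1.75e-05). Over all genes that fit called 267 of 13383, 1238 of 12673 and 922 of 10907 in these classes. With DESeq2 in place of edgeR, Pgk1 was called in macrophages (adjusted p = 0.013) and Aldoa, Tpi1, Pgk1 and Pgam1 in neutrophils (adjusted p = 0.0495, 0.0138, 0.0109 and 0.0254), beside 73 of 13916 and 103 of 13191 genes. With library size alone as the scale, the median of all genes moved to 0.17 in macrophages and 0.29 in neutrophils, and the median of the enzymes was -0.86 and -1.22. Macrophages of OE-Vector 1 were deeper than those of OE-MLKL 1, 2 and 3, with a median of 8471.5 UMIs per cell against 4196, 4849.5 and 7045. Neutrophils of OE-Vector 1, at 1211 UMIs, were deeper than those of OE-MLKL 1 and 2 (741 and 776) but not than those of OE-MLKL 3 (1422). Free RNA of OE-Vector 1 also held more of 6 of the members than that of any OE-MLKL library. Beside Pfkl these were Tpi1 (362 CPM against 188 to 264 CPM), Aldoa (835 CPM against 531 to 641 CPM), Pgam1 (484 CPM against 309 to 339 CPM), Pgk1 (401 CPM against 285 to 303 CPM) and Pfkp (90.9 CPM against 50.5 to 73.4 CPM). The part of depth and of free RNA in the differences was not tested. Fewer cells of a state and less RNA per cell cannot be told apart in such sums.

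**Figure D3:**
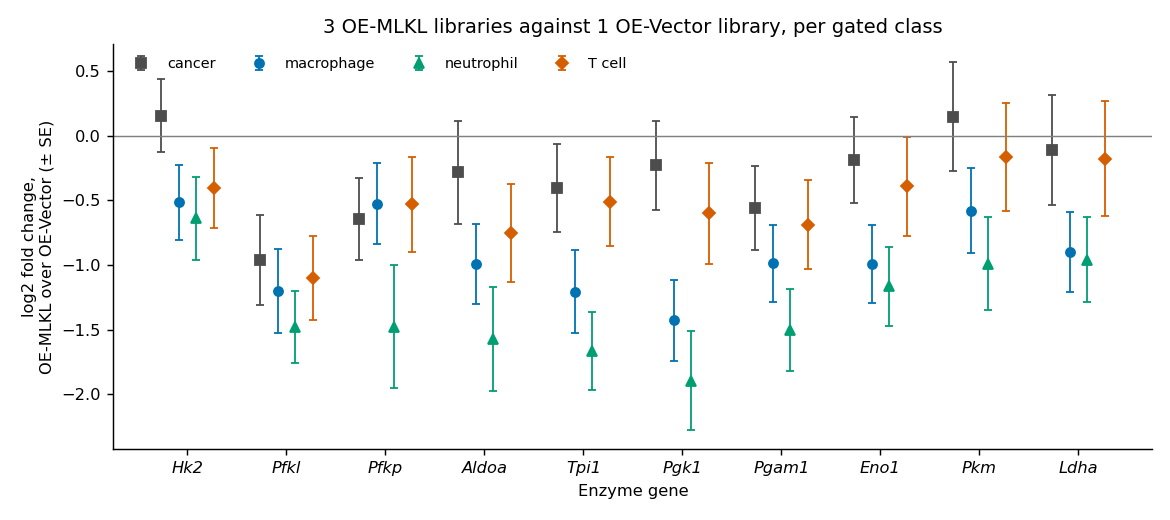
Log2 difference of each enzyme between the 3 libraries labelled OE-MLKL and the library labelled OE-Vector (vertical axis, edgeR fit, bars ± SE) for each of the 10 enzymes (horizontal axis) in the 4 gated classes. Macrophages and neutrophils lie below 0 for every enzyme, from -1.90 for Pgk1 in neutrophils to -0.52 for Hk2 in macrophages, and cancer-gated cells lie between -0.96 and 0.16.

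The tests of the difference itself placed the neutrophils furthest from the cancer-gated cells. In a single fit over all classes, no gene of 14446 was called as differing in its group effect from that in cancer-gated cells, 0% for each of macrophages, neutrophils and T cells, with 748, 1668 and 925 genes at an unadjusted p under 0.05. All 10 enzymes had an unadjusted p under 0.05 for neutrophils, with differences of the log2 effects from -1.71 for Pgk1 to -0.55 for Pfkl, and the lowest adjusted p was that of Tpi1 (-1.30 ± 0.26, edgeR adjusted p = 0.114). For macrophages 6 of the 10 had one, led by Pgk1 (-1.24 ± 0.44, adjusted p = 0.867). For T cells none of the 10 did, and the differences ran from -0.67 for Hk2 to 0.02. The comparisons share the same 4 libraries, and no enzyme was shown to differ between classes in its group effect.

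Other genes of the pathway showed the pattern of the enzymes only in part. The list held Gpi1 and Gapdh of the pathway itself, the regulators Bpgm, Pfkfb1 to Pfkfb4 and Tigar, the transporters Slc2a1, Slc2a3, Slc16a1 and Slc16a3, Pdk1 and the factors Hif1a and Myc, 15 genes in all. None was called in any class, and an unadjusted p under 0.05 was found for 3 of 15 tested in macrophages, 5 of 14 in neutrophils, 2 of 13 in T cells and 0 of 15 in cancer-gated cells, with medians of -0.13, -0.37, -0.28 and -0.02. The lactate exporter Slc16a3 stood at 153 CPM in macrophages of OE-Vector 1 and at 38.5, 46.8 and 76.4 CPM in OE-MLKL 1, 2 and 3 (-1.64 ± 0.35, edgeR adjusted p = 0.646), and at 500.5 CPM against 117, 107 and 306 CPM in neutrophils. The glucose transporter Slc2a1 stood at 83.1 CPM against 30.5, 32.9 and 54.6 CPM in macrophages. Gapdh stood at 1943 CPM against 1059, 1297 and 1113 CPM in macrophages and at 1340.3 CPM against 647, 806 and 916 CPM in neutrophils. Gpi1, the isomerase of the second step, was nearer, at 457 CPM against 367, 389 and 344 CPM in macrophages, and at 356 CPM against 326, 369 and 294 CPM in neutrophils, where the groups overlapped. Hif1a overlapped too in macrophages, at 241 CPM against 248, 146 and 210.5 CPM. Of the tested genes, 5 lay below OE-Vector 1 in all 3 OE-MLKL libraries in each of macrophages, neutrophils and T cells. In cancer-gated cells 0 did so. Above it in all 3 lay 2 in macrophages, 4 in neutrophils, 1 in T cells and 2 in cancer-gated cells. Bpgm was among these in macrophages, at 6.896 CPM against 11.1, 11.97 and 7.85 CPM. In neutrophils it was too, at 5.56 CPM against 10.19, 9.47 and 6.53 CPM. Free RNA held Slc16a3 at 113 CPM in OE-Vector 1 and at 18.4, 21.9 and 68.7 CPM in OE-MLKL 1, 2 and 3. The part of free RNA in the levels of Slc16a3 was not tested.

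None of the other isoenzymes was called between the groups in any class. Hk3 stood at 90.7 CPM in macrophages of OE-Vector 1 and at 20.9, 46.8 and 60.4 CPM in OE-MLKL 1, 2 and 3 (-1.22 ± 0.48, edgeR adjusted p = 0.821), and at 111 CPM against 31.6, 43.8 and 55.7 CPM in neutrophils. Hk1 overlapped between the groups in macrophages, at 38.0 CPM against 29.1, 38.5 and 51.2 CPM. Of the myeloid hexokinase, Hk3, the share thus stood at 32.3% in macrophages of OE-Vector 1 and at 13.8% to 24.9% in the OE-MLKL libraries, and in neutrophils at 41.9% against 25.8% to 27.6%. Free RNA held Hk3 at 41.5 CPM in OE-Vector 1 and at 8.16, 12.5 and 30.3 CPM in OE-MLKL 1, 2 and 3. The part of free RNA in the levels and shares of Hk3 was not tested.

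A list of 11 hypoxia genes, none of them a member, was read beside the enzymes. It was Vegfa, Bnip3, Car9, Ndrg1, Ankrd37, Egln3, Adm, P4ha1, Kdm3a, Ero1l and Mxi1. Its median group difference was -1.29 in macrophages, -1.39 in neutrophils, -0.86 in T cells (9 tested) and -0.33 in cancer-gated cells. No gene of it was called in any of these classes. Ero1l, an oxidase of the endoplasmic reticulum, stood at 181 CPM in macrophages of OE-Vector 1 and at 44.0, 39.3 and 83.5 CPM in OE-MLKL 1, 2 and 3, and at 301 CPM against 55.3, 64.4 and 94.2 CPM in neutrophils. The peptide hormone Adm had the largest difference in macrophages, at 15.9 CPM against 2.36, 2.96 and 3.58 CPM. The list did not go one way. All 3 OE-MLKL libraries lay below OE-Vector 1 for 8 of its tested genes in macrophages, 10 in neutrophils, 5 in T cells and 3 in cancer-gated cells, and all 3 lay above it for 0, 1, 1 and 2, against the shares of all genes given above. In macrophages Ndrg1 and Kdm3a differed by 0.01 and 0.05. In neutrophils the carbonic anhydrase Car9 stood at 0.54 CPM against 2.29, 1.15 and 4.64 CPM, and in cancer-gated cells Car9 stood at 3.25 CPM against 7.29, 5.99 and 12.7 CPM and Ndrg1 at 298 CPM against 534, 429.8 and 451 CPM. The share of cells with at least 2 UMIs of the list, each cell being thinned to 1000 UMIs, in macrophages was 20.3% in the OE-Vector library against 7.82%, 6.06% and 12.5% in the OE-MLKL libraries, and 35.3% against 10.5%, 13.0% and 17.6% in neutrophils. In cancer-gated cells it was 20.6% against 22.4%, 16.3% and 24.9%, where the groups overlapped. These are shares of cells of at least 1000 UMIs, and shallower cells were left out. Of the neutrophils 4892 of 6551 entered in OE-Vector 1, and 1214 of 5402, 2084 of 8727 and 6186 of 6839 in OE-MLKL 1, 2 and 3. The part of this selection in the shares was not tested.

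Cells with UMIs of this list held more of most of the enzymes than cells of the same class without. Only cells of at least 1000 UMIs entered, thinned to 1000 UMIs. The test set those with at least 2 list UMIs against those with none, with the library as a block. It called 9 of 10 enzymes higher in cancer-gated cells, 9 of 10 in macrophages, 8 of 10 in neutrophils and 1 of 9 tested in T cells, and none lower, against 1.71%, 2.83%, 0.945% and 0.294% of all genes tested as higher. The median log2 difference of the enzymes was 0.35, 1.04, 0.75 and 0.64 in these classes, and the median of all genes was -0.13 in T cells and -0.000867, -0.00254 and -0.00328 in the others. In macrophages Pgk1, whose promoter is shown above, stood at 1173 CPM in list-positive cells and 488 CPM in list-negative cells of OE-Vector 1, at 347 and 159 CPM in OE-MLKL 1, at 718 and 249.6 CPM in OE-MLKL 2 and at 715 and 259.8 CPM in OE-MLKL 3 (1.40 ± 0.10, edgeR adjusted p = 1.37e-13). Aldoa of macrophages stood at 1573 and 704 CPM, 643 and 366 CPM, 1058 and 434 CPM, and 969 and 484 CPM in the same libraries. Every library showed the same direction for both genes.

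Hk2 differed by 1.24 ± 0.15 (edgeR adjusted p = 2.11e-07) in neutrophils, where it stood at 163.5 and 46.3 CPM, 109 and 42.1 CPM, 115 and 61.5 CPM, and 135 and 74.9 CPM in list-positive and list-negative cells of OE-Vector 1, OE-MLKL 1, OE-MLKL 2 and OE-MLKL 3. In macrophages Hk2 differed by 1.06 ± 0.13 (edgeR adjusted p = 2.43e-07) and in cancer-gated cells by 0.34 ± 0.09 (adjusted p = 0.0313). In cancer-gated cells Pfkl and Pgk1 differed most, by 0.66 ± 0.10 (adjusted p = 2.69e-05) and 0.62 ± 0.06 (adjusted p = 6.22e-09), and only Pfkp did not pass the test (0.24 ± 0.13, adjusted p = 0.387, higher in 3 of 4 libraries). Pfkl did not pass it in macrophages (0.56 ± 0.18, adjusted p = 0.0778), nor did Eno1 and Pkm in neutrophils (0.34 ± 0.11 and 0.25 ± 0.10, each higher in 3 of 4 libraries). Ldha was called in all but the T cells, at 0.26, 1.02 ± 0.09 and 0.66 ± 0.10 in cancer-gated cells, macrophages and neutrophils. In T cells only Pgam1 was called (1.14 ± 0.29, adjusted p = 0.0224), and not with at least 3 list UMIs as the rule or without any 1 of the libraries. Promoters with the searched letters and without them were both represented, as Tpi1, which held none, differed by 1.09 ± 0.10 in macrophages.

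Before thinning, list-positive and list-negative macrophages had medians of 8534.5 and 8701.5 UMIs in OE-Vector 1 and of 7263 and 7114 UMIs in OE-MLKL 3, and T cells of OE-Vector 1 had 4509 and 3641 UMIs. The class markers differed more. Macrophage markers made up 3.02% and 3.41% of UMIs in list-positive and list-negative macrophages of OE-Vector 1 and 3.42% and 4.57% in those of OE-MLKL 1, and neutrophil markers made up 6.57% and 10.2% in neutrophils of OE-MLKL 1. Their part in the result was not tested.

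**Figure D4:**
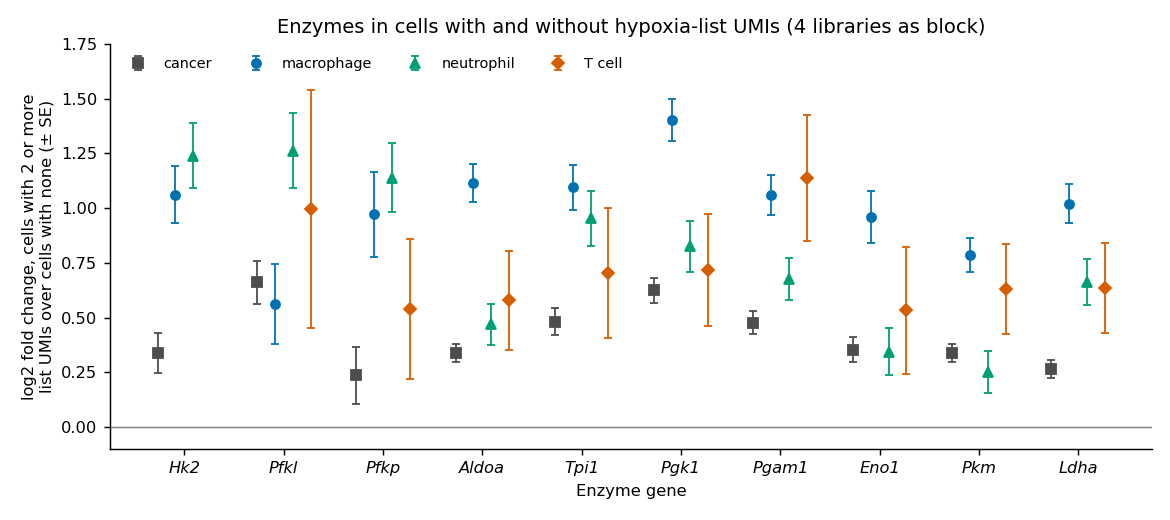
Log2 difference of each enzyme between cells with at least 2 UMIs of the 11-gene hypoxia list and cells with none (vertical axis, bars ± SE) for the 10 enzymes (horizontal axis) in the 4 gated classes, at 1000 UMIs per cell. All points lie above 0, macrophages reach 1.40 for Pgk1, cancer-gated cells stay at 0.66 or below, and Hk2 has no point in T cells because it was not tested there.

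The group comparison was then repeated in cells of at least 1000 UMIs, each thinned to 1000 UMIs. Only cells without any UMI of the hypoxia list were kept, an alternative chosen after seeing the data. The median log2 difference of the 10 enzymes in neutrophils was -0.72 there, against -1.48 in all cells and -1.45 in cells of at least 1000 UMIs. In macrophages it was -0.78 against -0.99. Hk2 of neutrophils turned from -0.64 to 0.23 (edgeR, adjusted p = 0.927), and the other 9 enzymes of neutrophils and all 10 of macrophages kept their sign. In cancer-gated cells the median was -0.35 and in T cells -0.39, where Hk2 turned from -0.40 to 0.41 (adjusted p = 0.999). The difference between the cells with and without list UMIs in their group effect was not tested.

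**Figure D5:**
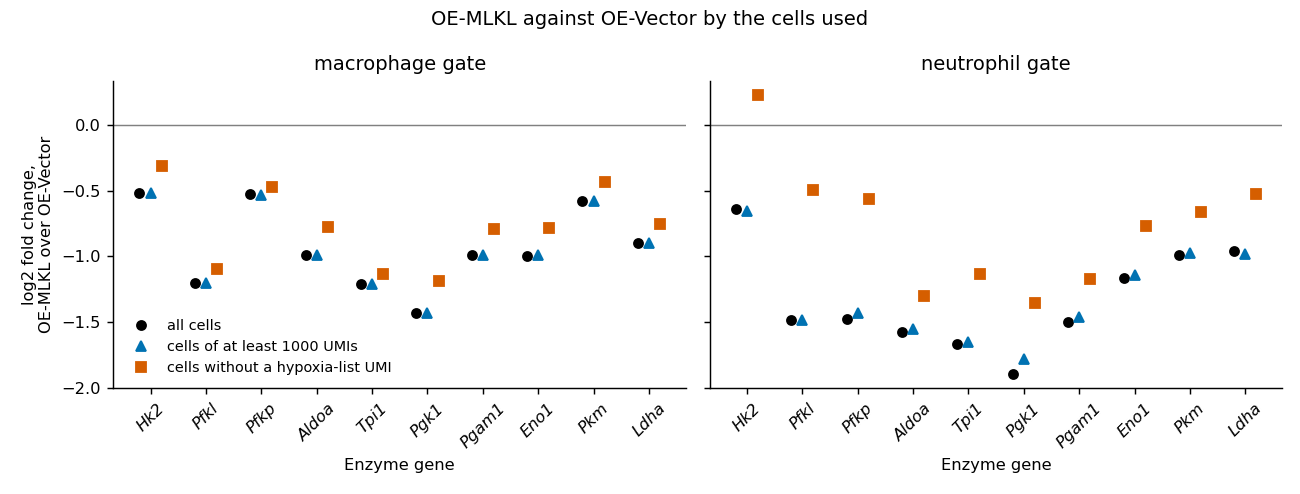
Log2 difference of each enzyme between the libraries labelled OE-MLKL and OE-Vector (vertical axis) for the 10 enzymes (horizontal axis) in macrophages (left) and neutrophils (right), in all cells, cells of at least 1000 UMIs and cells without a hypoxia-list UMI. Squares, for cells without a list UMI, lie nearer to 0 than the circles for all cells, and Hk2 in neutrophils is the only point above 0, at 0.23.

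Cells with at least 2 UMIs of a cell cycle list (Mki67, Top2a, Ccnb1, Cdk1, Birc5, Cenpf, Ube2c, Tpx2, Nusap1 and Hmmr) were compared in the same way. In cancer-gated cells 6 were higher than in cells without such UMIs, Tpi1, Pgk1, Pgam1, Eno1, Pkm and Ldha, by 0.31 to 0.49 on the log2 scale, and Hk2 was lower (-0.58 ± 0.15, edgeR adjusted p = 0.00244), where 13.2% of all genes were called higher and 10.2% lower. In T cells Tpi1 (0.89 ± 0.16, adjusted p = 2.52e-06), Ldha (0.65 ± 0.11, adjusted p = 9.91e-07) and Pgk1 (0.54 ± 0.15, adjusted p = 0.00419) were higher and none was lower, against 11.7% and 9.07% of genes. In macrophages no member was higher, and Hk2 (-1.12 ± 0.24, adjusted p = 7.05e-05) and Aldoa (-0.72 ± 0.14, adjusted p = 4.97e-06) were lower, against 5.2% of genes higher and 3.77% lower. Hk2 thus stood higher with the hypoxia list and lower with the cell cycle list in both cancer-gated cells and macrophages, except that in macrophages of OE-MLKL 1 it stood at 121 CPM in cells with cell cycle UMIs and 92.7 CPM in cells without. List-positive cells were deeper before thinning, with medians of 39649 and 23996 UMIs in cancer-gated cells of OE-Vector 1, and its part was not tested. The group difference of the cell cycle list itself had a median of -0.66 in cancer-gated cells, -0.58 in macrophages, -0.53 in neutrophils and -0.17 in T cells, with no gene called.

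Over the 16 sums of class and library, which share libraries, the members did not all vary together. The correlation of each with the mean of the other 9 (Pearson r of log2 CPM, a description with no test) was 0.88 for Aldoa, 0.82 for Pgk1, 0.81 for Pfkl, 0.77 for Tpi1 and 0.76 for Pgam1, then 0.67 for Pkm, 0.63 for Eno1 and 0.48 for Ldha, and only 0.23 for Pfkp and 0.22 for Hk2. Of 3423 other genes with a mean of at least 50 CPM, those whose pattern was most like the mean of the 10 were Mrps15 (r = 0.83), Ifi27 (0.81), Mif (0.77), Xpo1 (0.77) and Hspa5 (0.76).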

How the data were processed

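Single-cell 3' RNA libraries of orthotopic tumours were measured in 4 libraries, OE-Vector 1 and OE-MLKL 1, 2 and 3, while OE-Vector 2 and 3 were not analysed here. The authors deposited UMI counts per gene and barcode, aligned to mm10 with Cell Ranger, whose version is 7.1.0 in the matrix header, 2.1.1 in the submitters' processing notes and different again in the study's methods. No normalization had been applied to these counts. Barcodes with at least 500 UMIs and 200 genes, at most 10% mitochondrial and 5% haemoglobin UMIs were kept as cells. Cells were gated by the share of their UMIs from fixed marker lists (0.16% for 16 cancer, 1% for 12 macrophage, 1% for 11 neutrophil and 0.2% for 11 T cell markers), and the shares were set after seeing their distributions. The study's methods clustered the cells and named clusters from a marker database, so the classes here are rebuilt. No doublet caller was run. Cells passing several gates (304 to 653 per library) were left out in its place, as were cells with markers of other classes (67 to 144 per library). The lists and the members were chosen with earlier results of these data known.

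UMIs were summed per library and class and tested with edgeR 4.0.16 (quasi-likelihood, TMM, filterByExpr, Benjamini-Hochberg at 0.05, over all genes tested) in R 4.3.3. Classes were compared with the library as a block over 16 sums. Cells of at least 1000 UMIs were thinned to 1000 UMIs for the hypoxia and cell cycle lists, and shallower cells were left out there. Intervals are exact at 95% and cover counting error only. The study's methods describe 3 tumours in each group. The p-values rest on the spread between the libraries analysed, and in the group comparisons on that between the OE-MLKL libraries alone. Named genes were the 10 enzymes, their isoenzymes, 15 other pathway genes, Mlkl, the hypoxia and cell cycle lists and the 5 genes most like the enzymes. The scripts were tested on simulated data. Alternatives were scaling by library size, DESeq2 1.42.0, limma-voom (limma 3.58.1), no filter on low counts, gates 2 times stricter, cells of several gates kept, cells of at least 1000 UMIs and 500 genes, at least 3 list UMIs, and each library left out. Positions are those of GENCODE vM21 and promoters those of RefSeq, both for GRCm38.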

Additional observations from a re-analysis of the deposited data

Results flagged for a closer look

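Effects whose direction differed between classes were examined for 3 genes. For Hk2, the log2 difference of the libraries labelled OE-MLKL over OE-Vector was 0.16 in cancer-gated cells, all 3 libraries lying above OE-Vector 1, and -0.52 in macrophages, -0.64 in neutrophils and -0.40 in T cells, all 3 lying below it. The test of the difference between classes gave -0.72 ± 0.29 for macrophages over cancer-gated cells (edgeR, adjusted p = 0.901), -0.86 ± 0.29 for neutrophils (adjusted p = 0.287) and -0.67 ± 0.31 for T cells (adjusted p = 0.784), so none passed it.

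Pkm was at 0.15 in cancer-gated cells, and at -0.03 there without OE-MLKL 2, and at -0.58 in macrophages and -0.99 in neutrophils. The differences between classes were -0.75 ± 0.31 for macrophages (edgeR, adjusted p = 0.947) and -1.16 ± 0.32 for neutrophils (adjusted p = 0.215). Ldhb went the other way, at -0.69 in cancer-gated cells, 1.46 in macrophages, 1.13 in neutrophils and 0.48 in T cells, with differences of 2.14 ± 0.43 (adjusted p = 0.386), 1.85 ± 0.61 (adjusted p = 0.275) and 1.12 ± 0.57 (adjusted p = 0.810). Ldhb stood at 3.09 CPM in cancer-gated cells and 1.31 CPM in neutrophils of OE-Vector 1, against 4.57 to 8.16 CPM in free RNA, and the part of free RNA in these values was not tested.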

How the results depend on the processing

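No paired analysis was possible because the groups with a matrix share only replicate number 1. OE-Vector 1, the lone library of its group, could not be left out of the group comparisons, so those left out 1 OE-MLKL library at a time. Under the alternatives other than that chosen after seeing the data, 1037 results stayed the same, 53 were no longer past the threshold, 16 newly passed it, 44 moved and 3 reversed. None of the reversed values was called, and with 1 library left out these ran from -0.027 to 0.32 for Pkm in cancer-gated cells (below 0 without OE-MLKL 2), and from -0.33 to 0.065 and from -0.41 to 0.025 for Ldha in cancer-gated cells and in T cells (above 0 without OE-MLKL 3). Under that one, 47 stayed the same, 3 moved and 2 reversed, Hk2 at 0.23 in neutrophils and at 0.41 in T cells.

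Genes called between the groups numbered 1 in cancer-gated cells, 0 in macrophages, 0 in neutrophils and 1 in T cells. DESeq2 called 93, 73, 103 and 12. Leaving out 1 library gave 15 to 494, 0 to 267, 0 to 1238 and 28 to 922, the highest always without OE-MLKL 3. Library size alone gave 0 in cancer-gated cells, limma-voom 0 in cancer-gated cells and 0 in T cells, and no filter on low counts gave 19 in macrophages, 11 in neutrophils and 112 in T cells. With cells of several gates kept, 3 were called in macrophages and 1 in neutrophils, with at least 1000 UMIs and 500 genes 1 in neutrophils, and in cells without a hypoxia-list UMI 0 in cancer-gated cells and 3 in macrophages. Of the 10 enzymes, DESeq2 called 1 in macrophages and 4 in neutrophils against 0, and leaving out 1 library gave 0 to 2 in macrophages, 0 to 7 in neutrophils and 0 to 2 in T cells. Their median ranged from -0.40 to -0.11 in cancer-gated cells when 1 library was left out, and was -0.72 in neutrophils without hypoxia-list UMIs. The cause of these shifts was not tested.

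Enzymes called for cancer-gated cells over macrophages numbered 3, and 1 with no filter, 1 with cells of several gates kept and 1 to 5 with 1 library left out. For cancer-gated cells over neutrophils they numbered 4, and 7 with the stricter gate and 1 to 5 with 1 library left out, and for macrophages over neutrophils 6, and 1 to 6. In T cells 1 enzyme was higher in cells with hypoxia-list UMIs, and 0 with at least 3 list UMIs or with any 1 library left out (0 to 0). The smallest sums compared were those of T cells with hypoxia-list UMIs, which held 18, 18 and 27 cells in OE-MLKL 1, 2 and 3 and 68 in OE-Vector 1.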
